A study of Mus musculus with 148 samples.

Results

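Villi enterocytes of intestinal segment 7, the proximal ileum, were compared between mice at postnatal day 60 (P60, 8 samples) and mice at postnatal day 90 that had drunk lactose-free milk (P90 lac-, 6 samples). These 14 samples are all those, of 148 in the series, that carry segment 7 and either group in their labels. The study captured bisulfite-treated DNA with padlock probes at *Lct*, at its neighbour *Mcm6* and at imprinted genes used here as a reference, and counted modified and unmodified reads at each cytosine. A padlock probe is a DNA strand whose 2 ends anneal to the target, after which the stretch between them is copied and closed into a circle. The comparison asked how DNA modification of the locus differed between these adult ages in the proximal ileum.

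Mice of both groups were of strain C57BL/6, written C57BL/6MCrl in the strain label and C57BL/6NCrl in the protocol, and the sexes of the animals are not given. P60 mice drank water. P90 lac- mice received the lactose-free milk in place of water for 60 days from day 30. Age and milk thus changed together and their parts in any difference cannot be told apart. The labels do not say whether each sample came from a separate mouse, and the study's methods give fewer mice per segment for its adult correlation analysis than the P60 samples used here. Some P60 samples may therefore share a mouse, and the p values measure the spread between samples. Each value is an average over the cells and alleles of a sample. A change in the mix of cells and a change within the cells cannot be told apart, and counts of DNA reads hold no marker expression by which the enterocyte label could be checked here. The study itself checked the purity of its enterocyte isolation by histology and by sorting fluorescent cells.

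*Lct* encodes lactase, the brush-border enzyme that splits milk sugar, and its expression falls in the intestine after weaning. *Mcm6* encodes a subunit of the helicase that opens DNA for replication, and introns of its human counterpart carry variants known for lactase persistence. Cytosine methylation in mammals is found mainly at CpG, where promoters of active genes are usually unmodified and gene bodies modified, and differentially methylated regions of imprinted genes carry the mark on 1 parental allele. In GRCm38, *Lct* runs from 128284756 to 128328318 and *Mcm6* from 128331590 to 128359664 of chromosome 1, both on the minus strand and each with 17 exons.

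The stretches that the results turn on are printed here on the minus strand, 5′ to 3′, with their CpGs in capitals. *Mcm6* exon 2 is shown for the largest difference of any feature in the locus, *Mcm6* exon 13 for the cluster that the study compared between ages, the *Mcm6* promoter and the *Lct* 3′ flank for single CpGs, and *Nap1l5* and *Gnas* for CpGs of the reference targets that were lower at P90. The coordinates are those of GRCm38.
Mcm6 exon 2, chr1:128355567-128355624: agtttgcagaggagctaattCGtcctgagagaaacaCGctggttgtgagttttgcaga
Mcm6 exon 13, chr1:128338108-128338205: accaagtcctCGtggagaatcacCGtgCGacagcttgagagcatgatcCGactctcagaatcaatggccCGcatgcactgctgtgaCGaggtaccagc
Mcm6 promoter, chr1:128359774-128359814: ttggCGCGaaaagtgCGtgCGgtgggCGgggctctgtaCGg
3′ flank of Lct, chr1:128278048-128278078: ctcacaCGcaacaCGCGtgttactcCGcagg
Nap1l5 target, chr6:58907058-58907157: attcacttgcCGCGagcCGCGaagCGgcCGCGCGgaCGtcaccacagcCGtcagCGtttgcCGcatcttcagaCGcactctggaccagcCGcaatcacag
Gnas target, chr2:174297139-174297213: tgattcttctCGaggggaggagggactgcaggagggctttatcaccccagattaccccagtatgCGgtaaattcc

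Modified and unmodified reads summed over the cytosines of the locus came to between 19208290 and 42953113 in the P60 samples (median 21040165.5) and between 20112388 and 82179276 in the P90 lac- samples (median 25131617). The median CpG of the locus was read 1296 to 2888 times in a P60 sample and 1219 to 5635 times in a P90 lac- sample. The deepest, P90 replicate 5, was the only sample from lane 1 and the only one whose file was marked as merged. Lane 5 held 3 of the P60 samples, lane 6 held 2 and lane 7 held 3, and the other P90 lac- samples were spread over lane 6 (4) and lane 7 (1). Lanes 6 and 7 therefore hold both ages, with 5 samples of each. At cytosines with more than 30 reads, percent modification was the modified reads divided by all reads.

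Averaged over the 622 CpGs of the locus read more than 30 times in all 14 samples, DNA modification did not differ between the ages beyond the spread between samples. The P60 samples lay between 77.9% and 79.2% with a median of 78.6%, and the P90 lac- samples between 77.5% and 79.2% with a median of 78.3%. The ranges overlapped almost entirely. The means were 78.6% ± 0.44 (SD, n = 8) at P60 and 78.3% ± 0.61 (SD, n = 6) at P90. The difference, P90 minus P60, was -0.27 percentage points, with a 95% interval from -0.87 to 0.34 (exact permutation test with all 3003 ways to assign the ages, two-sided, p = 0.351, Benjamini-Hochberg 0.351 over 3 means). On the shared lanes it was -0.16 (exact permutation p = 0.619), with the ages permuted within lane -0.22 (p = 0.55) and without the merged file -0.11 (p = 0.688). In the 761 reference CpGs the mean was 51.6% ± 0.43 (SD, n = 8) at P60 and 50.98% ± 0.72 (SD, n = 6) at P90, a difference of -0.60 points with an interval from -1.26 to 0.076 (exact permutation p = 0.0763). That p was 0.0132 without P90 replicate 3 (-0.83 points) and 0.0443 without P90 replicate 6 (-0.74 points), and 0.246 on the shared lanes (-0.51 points).

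**Figure D1:**
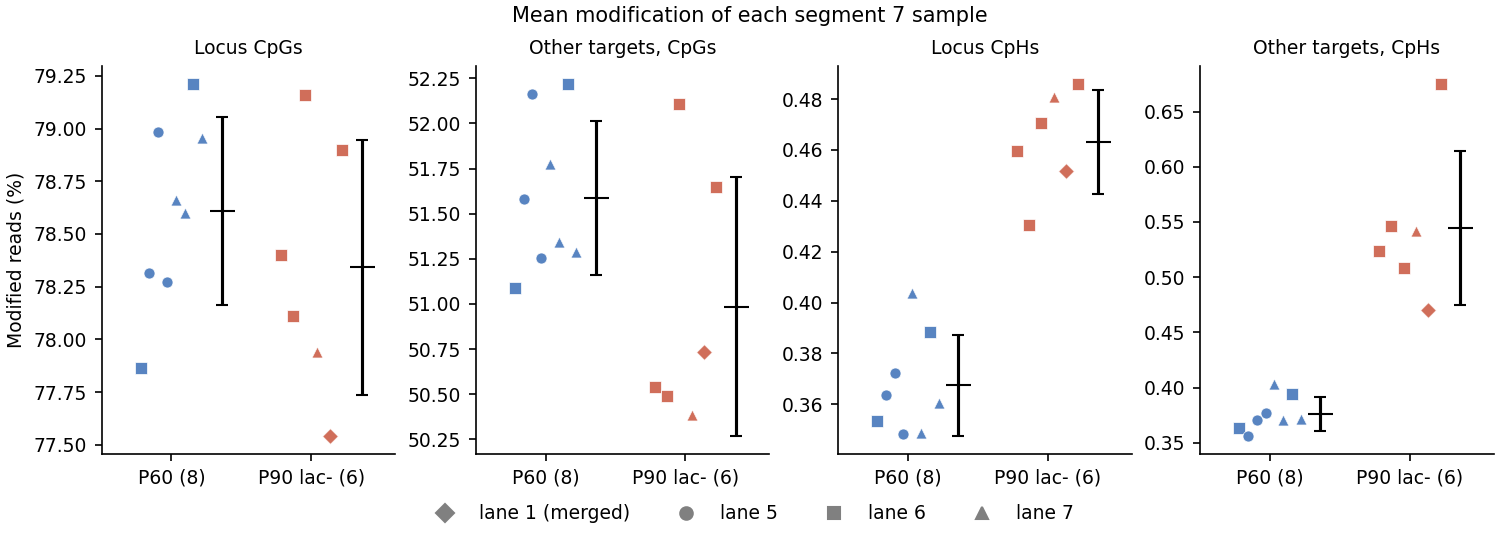
Mean percent modification in each of the 8 P60 and 6 P90 lac- samples of segment 7, for CpGs of the locus, CpGs of the other targets, CpHs of the locus and CpHs of the other targets, with marker shape for the sequencing lane and bars for the mean ± SD. The CpG panels overlap between the ages, while every P90 sample lies above every P60 sample in both CpH panels (0.431% to 0.486% against 0.348% to 0.404% in the locus).

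Single CpGs were tested with a quasi-binomial F test on their read counts, with Bonferroni correction over all 1499 CpGs tested and a threshold of 0.01. Of the 642 CpGs of the locus, 0 passed (0%), and 92 (14.3%) had an unadjusted p under 0.05, of which 24 were higher at P90 (3.74% of those tested) and 68 lower (10.6%). limma on log2 odds called 0, with 68 at an unadjusted p under 0.05. The reference gave 0 of 857 (0%), with 149 (17.4%) at an unadjusted p under 0.05, 39 higher (4.55%) and 110 lower (12.8%), so the share in the locus was near that of the reference. There limma called 0 as well, with 134 at an unadjusted p under 0.05. Differences in the locus ranged from -7.42 to 10.2 points with a median of -0.24, 250 CpGs were higher and 392 lower at P90, and 15 moved by more than 5 points. In the reference the median was -0.50. Changes of such sizes could be missed at intermediate levels, since in simulated counts the same test called 4 of 50 CpGs changed by 5 points and 18 of 50 changed by 10. The changed CpGs were all of intermediate level, drawn from the locus and the reference together, and were only raised. These rates thus do not cover the 53 locus CpGs under 10% or the 332 above 90%. Of unchanged simulated CpGs, 7.93% had an unadjusted p under 0.05.

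By place, more CpGs had a lower level at P90 within both genes, and fewer in the 5′ flank of *Mcm6*. The reference leaned the same way as the genes, with 356 of 857 CpGs higher at P90 and 501 lower. The counts by place do not take the level of the CpGs into account. Of 177 CpGs tested in *Lct* exons 59 were higher at P90, of 161 in its introns 71, of 107 in *Mcm6* exons 32, and of 95 in its introns 38. In the 3′ flank of *Lct* 21 of 48 were higher, and in the 5′ flank of *Mcm6* 27 of 52. Both cytosines of a CpG, 1 on each strand, were compared where both were tested, and their differences had the same sign at 142 positions and opposite signs at 104. An unadjusted p under 0.05 was found on at least 1 strand at 55 of these positions and on both strands at 4. The 4 lay in the 3′ flank of *Lct* (128275783), *Lct* intron 12 (128292085), *Mcm6* exon 12 (128339415) and *Mcm6* exon 2 (128355587). Whether 4 is more than unrelated strands would give was not tested, so a low p on both strands does not set these positions apart.

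**Figure D2:**
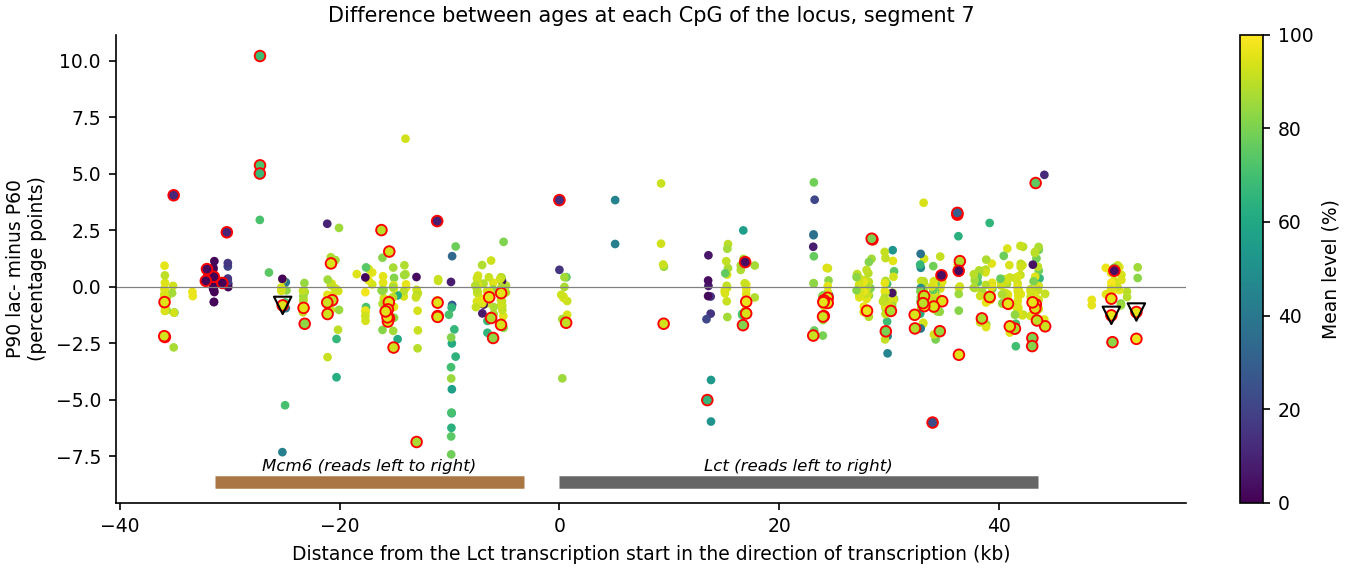
Difference in percent modification (P90 minus P60, percentage points) of each of the 642 CpGs of the locus against its distance from the *Lct* start in kb, coloured by mean level, with a red rim for an unadjusted p under 0.05 and a triangle for a Benjamini-Hochberg adjusted p under 0.05. Most CpGs lie within 5 points of 0, the 3 triangles are all slightly below 0, and the highest point, at 10.2, is in *Mcm6* exon 2.

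Under the less strict Benjamini-Hochberg correction, 3 CpGs of the locus (0.467%) had an adjusted p under 0.05, all lower at P90 and all highly modified. The lowest p was at 128278063 on the minus strand, in the 3′ flank of *Lct*. The P60 samples read there between 96.4% and 97.3% (median 96.9%) and the P90 lac- samples between 95.2% and 97.1% (median 95.4%), so that only 1 P90 sample, replicate 1, lay among the P60 values. The difference was -1.27 points (quasi-binomial F test, Bonferroni-adjusted p = 0.0978). With each sample left out in turn the adjusted p ran from 0.00234 (without P90 replicate 1, -1.56 points) to 0.638 (without the merged P90 replicate 5). At 128275784, also in the 3′ flank, the means were 96.3% at P60 and 95.1% at P90 (-1.12 points, adjusted p = 0.137). Here the p ran from 0.00928 (without P90 replicate 2, -1.32 points) to 0.866 (without P90 replicate 5). The third CpG, 128353523 on the plus strand in *Mcm6* exon 3, had means of 95.3% and 94.5% (adjusted p = 0.139). With lane as a covariate, on the shared lanes and in limma, the Bonferroni-adjusted p of each of the 3 was 1. Under Benjamini-Hochberg correction limma called 0 CpGs of the locus and 2 of the other targets.

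Among the other CpGs of the locus with the lowest p values, none of which passed, 1 lay in the *Mcm6* promoter, 130 bp upstream of the start. At this position, 128359794 on the plus strand, P60 samples read 0.0781% to 0.588% (median 0.389%) and P90 lac- samples 0.632% to 1.05% (median 0.779%). The groups did not overlap at this CpG, which was true of 3 of 642 CpGs (0.467%), 1 higher (0.156%) and 2 lower at P90 (0.312%). Its means were 0.362% at P60 and 0.797% at P90, with an adjusted p of 0.507 in the quasi-binomial F test. Cytosines of the locus outside CpG averaged 0.367% at P60 and 0.463% at P90, also without overlap between the groups. The P60 value of this CpG was thus at the level of those cytosines. In coding sequence, *Lct* exon 8 at 128299886 had 79.1% ± 0.79 (SD, n = 8) at P60 and 81.2% ± 1.22 (SD, n = 6) at P90. *Mcm6* intron 9 at 128344148 had 95.6% and 94.5%. Upstream of *Mcm6*, 128363451, read only where a probe arm anneals, had 8.86% and 12.9%, and 128364309 had 94.2% and 92.0%, the latter without overlap but with 5 P90 samples.
The other CpG without overlap was 128294342 in *Lct* intron 10, with 26.4% ± 2.36 (SD, n = 8) at P60 and 20.4% ± 5.41 (SD, n = 6) at P90. It was named after its values were seen.

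Of the 58 exons, introns and flanking stretches with at least 3 covered CpGs, 18 were higher and 40 lower at P90. None passed an exact permutation test after Benjamini-Hochberg correction (0%, lowest adjusted p 0.209), and 5 (8.62%) had an unadjusted p under 0.05, 2 of them higher at P90 (3.45% of the features) and 3 lower (5.17%). *Mcm6* exon 2, which is coding, had the largest difference and the lowest p. Its P60 samples read 66.8%, 64.3%, 66.7%, 63.5%, 65.04%, 69.4%, 68.97% and 69.98%, and its P90 lac- samples 72.2%, 68.9%, 76.5%, 68.66%, 73.7% and 76.2%. All P90 samples but replicates 2 and 4 lay above every P60 sample, and those replicates lay within the P60 range.

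The mean of *Mcm6* exon 2 was 66.8% ± 2.45 (SD, n = 8) at P60 and 72.7% ± 3.42 (SD, n = 6) at P90. That is a difference of 5.88 points with an interval from 2.48 to 9.32 (exact permutation p = 0.00466, Benjamini-Hochberg 0.209 over the 58 features). All 4 cytosines of its 2 CpGs were higher at P90, by 5.36 and 10.2 points at the first CpG (plus strand 128355587, minus strand 128355588) and by 5.00 and 2.95 points at the second (128355603 and 128355604). These cytosines were singled out after their values were seen. The plus-strand cytosines had medians of 953.5 and 950 reads at P60 and the minus-strand ones 184 and 183.5, so the minus strand, read least, held both the widest and the narrowest difference. On the shared lanes the difference at 128355588 was 5.50 points. Samples from P90 mice on lactose milk (LAC+, 7 samples) averaged 73.7%, and infant P6 samples (4) 37.4%. Within lanes the difference was smaller, 4.47 points on the shared lanes (exact permutation p = 0.0794) and 3.75 with the ages permuted within lane (exact permutation p = 0.183). Without the merged file it was 5.68 (exact permutation p = 0.00855).

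**Figure D3:**
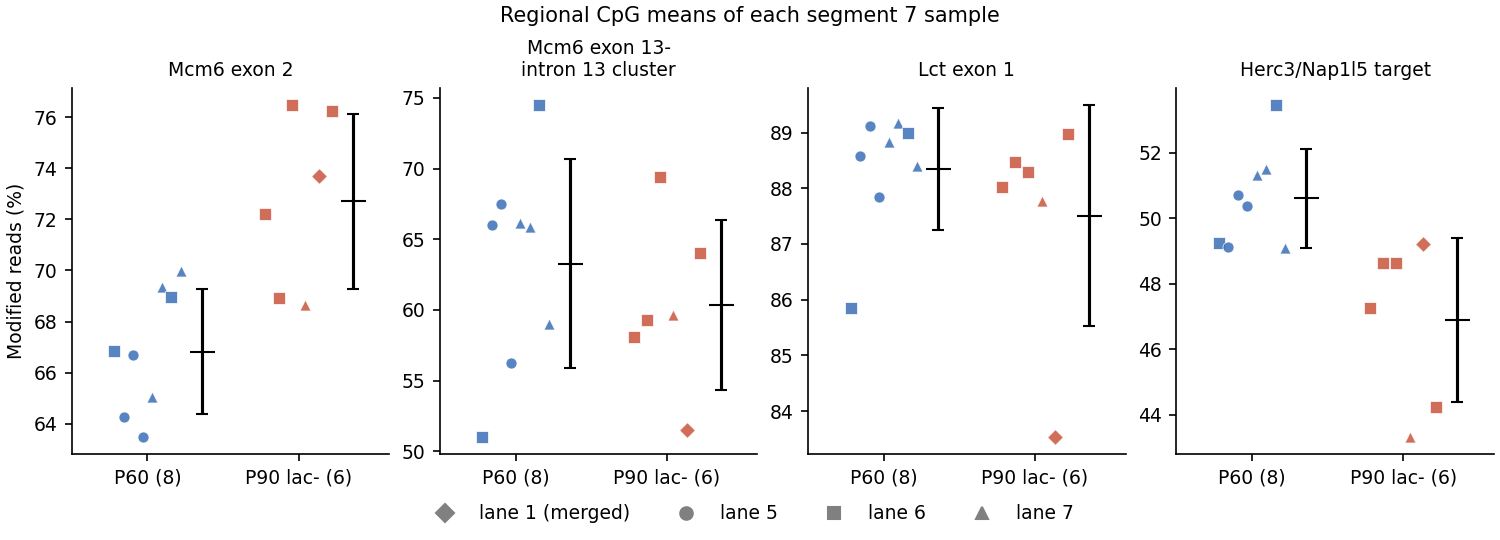
Mean percent modification in each P60 and P90 lac- sample in *Mcm6* exon 2, the *Mcm6* exon 13-intron 13 cluster, *Lct* exon 1 and the *Herc3*/*Nap1l5* target, with marker shape for lane and bars for the mean ± SD. In *Mcm6* exon 2 the P90 samples sit higher (68.66% to 76.5% against 63.5% to 69.98%), in the exon 13 cluster both groups spread over about the same range, in *Lct* exon 1 a single P90 sample lies at 83.5%, and in the *Nap1l5* target the P90 samples sit lower.

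The other features with an unadjusted p under 0.05 moved by no more than 1 point. *Lct* intron 12 was higher at P90 by 0.96 points (66.7% and 67.64%, exact permutation p = 0.0163), and both strands of its CpG at 128292085 were higher, by 3.18 and 3.26 points. *Lct* intron 15 differed by -0.99 points (89.9% and 88.9%, exact permutation p = 0.00999), *Lct* exon 16 by -0.45 (95.1% and 94.7%, p = 0.018) and *Mcm6* exon 12 by -0.31 (85.5% and 85.2%, p = 0.0133). On the shared lanes the difference in *Lct* intron 12 was 0.86 points (exact permutation p = 0.143). The next largest positive difference was in *Lct* intron 6, 1.23 points (exact permutation p = 0.204), and the largest negative ones were *Mcm6* exon 13 (-4.09, p = 0.34), *Lct* intron 10 (-2.23, p = 0.0636) and *Mcm6* intron 11 (-1.50, p = 0.149).

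*Lct* exon 1 holds the start of the gene. Its P60 samples lay between 85.8% and 89.2% (median 88.7%) and its P90 lac- samples between 83.5% and 89.0% (median 88.2%). The lowest value in each group was a single sample, P60 replicate 1 and the merged P90 replicate 5, and the other values overlapped. The difference was -0.84 points (exact permutation p = 0.392), -0.046 without the merged file and 0.052 on the shared lanes. In the other stretches of interest to the study no difference passed. *Lct* intron 2 differed by -1.04 points, exon 12 by -0.49, exon 9 by -0.49, intron 9 by -0.41 and intron 8 by 0.26. In *Mcm6* intron 1, next to the promoter, the means were 9.35% and 9.95%, and P90 replicate 5 was again apart, at 13.7%.

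The clusters of CpGs that change along the intestine were found in 63 P60 samples of the 8 other segments, so no sample compared here was used to choose them. Of 653 CpGs tested there 135 passed, and 111 of these formed 17 clusters of at least 3 within 500 bp of the next. In segment 7, P90 was higher in 3 clusters and lower in 14. No cluster passed an exact permutation test after correction (0%, lowest Benjamini-Hochberg value 0.471), and 0 had an unadjusted p under 0.05. Differences ran from -3.03 points in *Lct* intron 2 (38.8% and 35.7%) to 1.11 in *Lct* exon 8 and intron 8 (79.2% and 80.4%), with a median of -0.64. The cluster of *Lct* exon 1 differed by -1.06, and those at *Lct* exons 4, 7, 9, 10 and 12 by -0.86, -0.66, -0.81, -0.48 and -0.64. In *Mcm6*, clusters at exons 4, 7, 10 and 14 differed by -0.61, -1.26, -0.40 and -0.080, and the one in intron 3 by -1.37. The remaining positive differences were 0.90 in the 3′ flank of *Lct* and 0.037 at *Mcm6* exon 16, while a second cluster of that flank differed by -0.51. Several of these values rested on the merged P90 replicate 5. Without it the clusters at *Lct* exons 1, 4, 9, 10 and 12 differed by -0.20, -0.39, -0.38, -0.27 and -0.20, and the one at *Mcm6* exon 4 by -0.31.

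The largest cluster spans *Mcm6* exon 13 and parts of introns 12 and 13 (128337771 to 128338385, 18 CpGs at 10 positions), the region for which the study compared ages. Its P60 samples read 51.01%, 66.03%, 67.5%, 56.2%, 66.1%, 65.9%, 74.5% and 59.03%, and its P90 lac- samples 58.1%, 59.3%, 69.4%, 59.7%, 51.5% and 64.05%. The groups overlapped over nearly their whole range, and the span within P60 alone was wider than any difference between the groups. The means were 63.3% ± 7.4 (SD, n = 8) and 60.3% ± 6.0 (SD, n = 6). The difference was -2.95 points with an interval from -11.0 to 5.13 (exact permutation p = 0.449), so that a gain of more than 5.13 points lies outside the interval. Without the merged file it was -1.18 and on the shared lanes -1.21. LAC+ samples averaged 60.8% and P6 samples 33.6%, the latter far below both adult groups.

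Of the 18 CpGs 3 were higher and 15 lower at P90, none with an unadjusted p under 0.05 (0%, against 14.3% in the locus). The lowest p was at 128338178 on the minus strand, with P60 samples between 67.9% and 90.2% (median 85.6%) and P90 lac- samples between 58.5% and 85.04% (median 75.4%). Its difference was -7.42 points, the lowest of any CpG in the locus, against SDs of 8.13 and 9.25 (Bonferroni-adjusted p = 1). Without the merged file it was -4.25 points and on the shared lanes -3.13. The cluster's CpGs were not equally modified, and the pair at 128338093 and 128338094 in intron 13 read 32.9% and 29.4% at P60, against a mean of 66.3% over exon 13. The lowest CpG, 128338195 on the minus strand, had 7.42% at P60 and 7.62% at P90. It was read only where a probe arm anneals, and its plus-strand partner 128338194 had 71.3% at P60. This CpG is kept in the cluster and exon 13 means and is among the 3 higher at P90. P60 replicate 1 was the lowest and replicate 7 the highest P60 sample in the cluster, in the locus mean and in the reference mean, and P90 replicate 3 was the highest P90 sample in all 3.

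In the same cluster, the P90 minus P60 difference was 8.53, 7.63, 13.7 and -0.069 points in intestinal segments 1, 3, 4 and 8. The segment 7 difference minus those was -11.5, -10.6, -16.6 and -2.88, and none passed a permutation test of the interaction (100000 resamples, Benjamini-Hochberg over 12 comparisons 0.165, 0.316, 0.121 and 0.95). The intestines of single mice were cut into all segments, so samples of different segments may share an animal, which the labels do not tie and the test does not take into account. Without merged files the differences were 1.52, 5.69, 0.79 and 1.01, with 2 P90 samples left in segments 1 and 4. On the lanes shared within each segment they were -4.18, 7.84, 3.36 and 2.34, so that the direction turned in segment 1, where as in segment 4 only 2 samples of each age were left, and in segment 8. The locus mean differed by between -0.26 and -0.011 points in those segments against -0.30 in segment 7, over the 590 CpGs covered in all of them. In segments 1 and 4 it was -1.60 and -1.16 without merged files and -2.16 and -1.11 on shared lanes, each with 2 P90 samples.

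**Figure D4:**
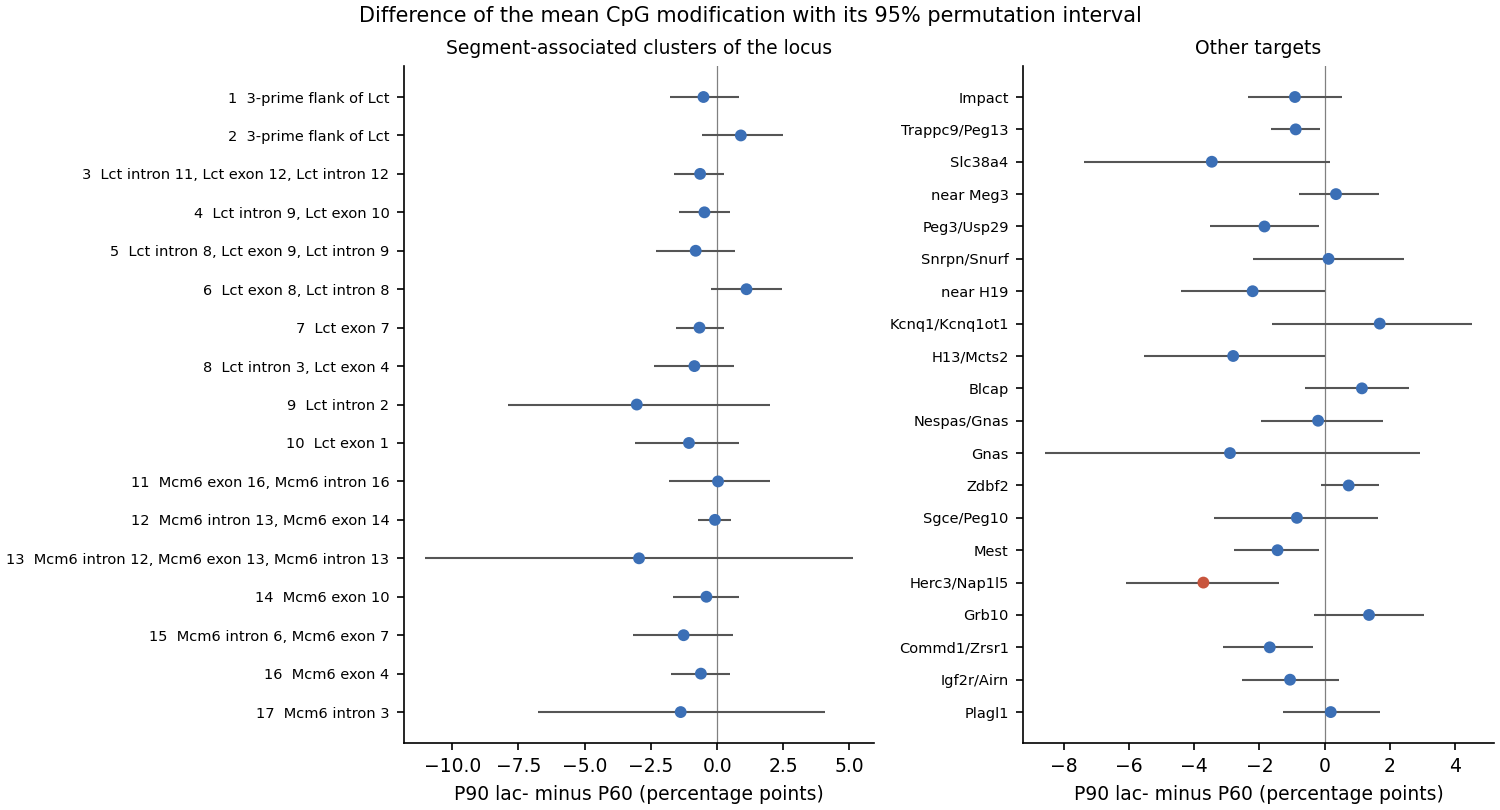
Difference in mean percent modification (P90 minus P60, percentage points) of the 17 clusters of the locus and of the 20 reference targets, each with its 95% interval from the permutation test, and red where the Benjamini-Hochberg value is under 0.05. The single red interval is the *Herc3*/*Nap1l5* target at -3.72 (-6.10 to -1.40), and the widest cluster interval is that of *Mcm6* exon 13-intron 13.

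Cytosines outside CpG, called CpH, differed more clearly than CpGs, at a far lower level. The mean over 9657 CpHs of the locus was between 0.348% and 0.404% in P60 samples (median 0.362%) and between 0.431% and 0.486% in P90 lac- samples (median 0.465%). Every P90 sample was above every P60 sample. The means were 0.367% ± 0.020 (SD, n = 8) and 0.463% ± 0.020 (SD, n = 6), a difference of 0.096 points with an interval from 0.076 to 0.116. The exact permutation p of 0.000333, the smallest that the design allows, was 0.000999 after correction. It was 0.094 points on the shared lanes (exact permutation p = 0.00794) and 0.098 with the ages permuted within lane (exact permutation p = 0.0167), again the smallest possible values.

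The difference was found in each sequence context, CA (0.332% and 0.397%), CC (0.378% and 0.483%) and CT (0.396% and 0.516%). It was wider outside the locus, where 9340 CpHs averaged 0.376% ± 0.016 (SD, n = 8) and 0.544% ± 0.070 (SD, n = 6) (exact permutation p = 0.000333). The mean outside the locus was added after the values were seen. LAC+ samples averaged 0.464% and P6 samples 0.482% over the locus CpHs, both above the P60 level. By their file names all LAC+ samples belong to lane 1 and all P6 samples to lane 8. The files of LAC+ replicates 3 to 7 were marked as merged. No P60 sample compared here carries those lanes, so lane and group cannot be told apart there. Reads that escape bisulfite conversion count as modified, at CpH as at CpG, and how much of this difference is incomplete conversion was not tested. Of 10134 CpHs of the locus tested singly, 1856 (18.3%) had an unadjusted p under 0.05, 1808 of them higher at P90 (17.8% of those tested). The same share was not counted for CpHs outside the locus, so it cannot be read as particular to the locus. In the quasi-binomial F test 0 of all 20586 CpHs passed Bonferroni correction over CpGs and CpHs (lowest adjusted p 0.0221).

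CpGs at the ends of the scale had differences of opposite sign, of which the one above 90% passed correction, in means over ranges of level that were chosen after the values were seen. The 51 locus CpGs under 10% modified averaged 2.03% at P60 and 2.40% at P90, 0.37 points higher (exact permutation p = 0.0346, Benjamini-Hochberg 0.0779 over the 9 means added). The 318 CpGs above 90% averaged 93.9% and 93.6%, a difference of -0.35 points with an interval from -0.66 to -0.071 (exact permutation p = 0.0133, Benjamini-Hochberg 0.04). On the shared lanes the latter was -0.21 points (exact permutation p = 0.111). Between these ranges the differences were 0.67 points for 31 CpGs at 10% to 50% and -0.42 for those at 50% to 90% (exact permutation p = 0.608 and 0.471).
Taken singly, 40 of 53 CpGs under 10% were higher at P90, and 98 of 332 above 90%. In the reference the range that differed was that of CpGs from 10% to 50%, by -1.30 points over 394 CpGs (42.6% and 41.3%, exact permutation p = 0.013, Benjamini-Hochberg 0.04), and it was -1.35 on the shared lanes (exact permutation p = 0.0397). There too the difference was positive under 10% (0.21 points) and negative above 90% (-0.31), over 50 CpGs each (exact permutation p = 0.375 and 0.477). Singly, 38 of 53 reference CpGs under 10% were higher at P90, and 22 of 54 above 90%. Both mean differences changed sign on the shared lanes.

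**Figure D5:**
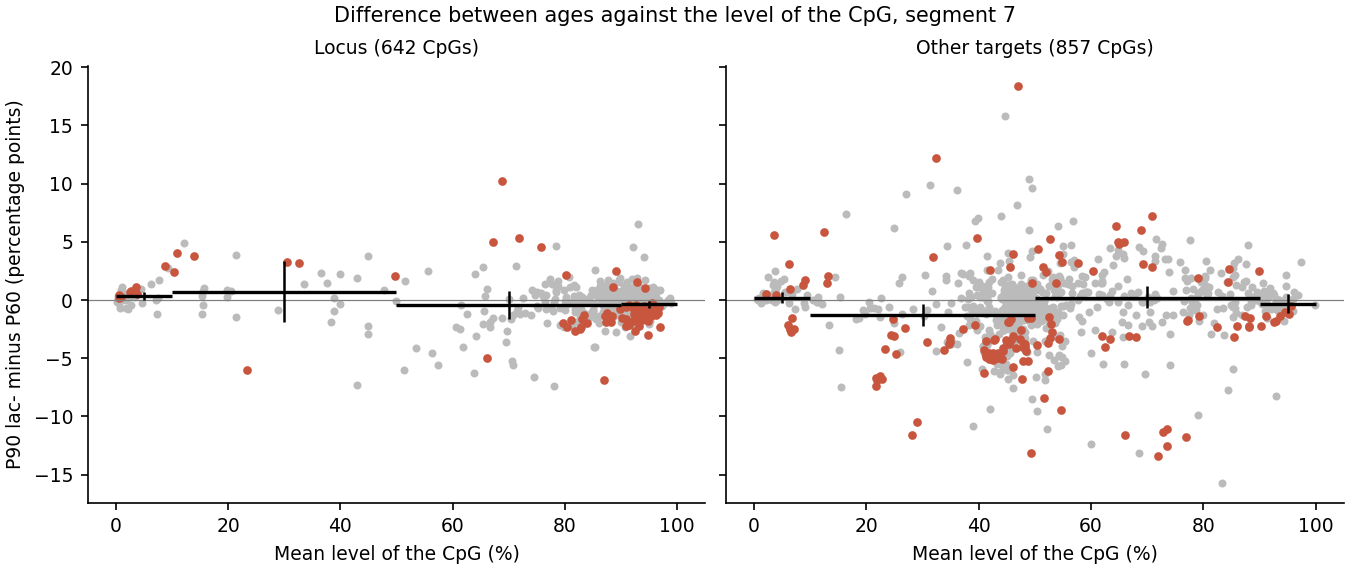
Difference in percent modification (P90 minus P60, percentage points) against the level of each CpG, in the locus and in the other targets, red for an unadjusted p under 0.05, with black lines for the mean difference of each range of level and its 95% interval. The mean line lies at 0.37 under 10% and at -0.35 above 90% in the locus, and at -1.30 between 10% and 50% in the other targets.

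Among the 20 reference targets with at least 3 covered CpGs, 7 were higher and 13 lower at P90. Of these, 1 (5%) passed an exact permutation test after correction. It is the target at *Herc3* and *Nap1l5* on chromosome 6, where *Nap1l5*, an imprinted gene, lies within an intron of *Herc3*. The P60 samples read 49.2%, 49.1%, 50.7%, 50.4%, 51.3%, 51.5%, 53.5% and 49.1%, and the P90 lac- samples 47.3%, 48.6%, 48.6%, 43.3%, 49.2% and 44.2%. Of the P90 samples 1, the merged replicate 5, lay within the P60 range, just above its lower end. The means were 50.6% ± 1.50 (SD, n = 8) and 46.9% ± 2.51 (SD, n = 6), a difference of -3.72 points with an interval from -6.10 to -1.40 (exact permutation p = 0.000999, Benjamini-Hochberg 0.02). On the shared lanes it was -4.51 (exact permutation p = 0.00794) and without the merged file -4.18 (exact permutation p = 0.000777).

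Of its 18 CpGs, 14 lie in 80 bp on the minus strand and were read by the same molecules, so they are not separate measurements. Their mean was 44.8% ± 1.93 (SD, n = 8) at P60 and 40.02% ± 3.21 (SD, n = 6) at P90, and each of the 14 was lower, by differences from -5.17 to -4.32 points. The other 4 CpGs of the target differed by between -0.54 and 0.76 points. When reads were pooled over the target instead of averaging CpGs, the difference was 0.12 points (exact permutation p = 0.93), and without P90 replicate 4 or without P90 replicate 6 no target passed after correction (0 of 20).
In all, 5 of 20 (25%) had an unadjusted p under 0.05, each of them lower at P90. Those beside *Herc3*/*Nap1l5* were *Commd1*/*Zrsr1* (-1.68 points, exact permutation p = 0.0157), *Mest* (-1.45, p = 0.0246), *Trappc9*/*Peg13* (-0.89, p = 0.0263) and *Peg3*/*Usp29* (-1.85, p = 0.0333).

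The remaining targets did not pass before correction. Those with a lower mean were *Slc38a4* (-3.46 points), *Gnas* (-2.90), *H13*/*Mcts2* (-2.80), the target 1940 bp from *H19* (-2.21), *Igf2r*/*Airn* (-1.06), *Impact* (-0.91), *Sgce*/*Peg10* (-0.85) and *Nespas*/*Gnas* (-0.20). Those with a higher mean were *Kcnq1*/*Kcnq1ot1* (1.68), *Grb10* (1.36), *Blcap* (1.14), *Zdbf2* (0.73), the target 10151 bp from *Meg3* (0.34), *Plagl1* (0.18) and *Snrpn*/*Snurf* (0.12). The groups did not overlap at 15 of 857 reference CpGs (1.75%), all lower at P90. Of these, 4 lay close together on the minus strand of the *Zdbf2* target, whose mean was higher at P90. They were read little, with a median of 49 reads at P60 and 34.5 to 35 at P90. Others of the 15 were neighbours on 1 strand as well, so the 15 are not separate measurements.

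The reference CpGs with the lowest p lay mostly in the *Nespas*/*Gnas* target of chromosome 2, although the mean of that target moved little. At 174297203 the P60 samples read 29.9% to 39.8% (median 33.4%) and the P90 lac- samples 18.4% to 26.3% (median 22.4%), with no overlap. The means of 33.9% and 22.3% differed by -11.6 points (quasi-binomial F test, Bonferroni-adjusted p = 0.218). The other CpG of the printed sequence, 174297149, had 34.1% and 23.7% (adjusted p = 0.346). These were the 2 CpGs that limma called under Benjamini-Hochberg correction, with Bonferroni-adjusted p values of 0.0243 and 0.0238, still above the threshold of 0.01, while on the shared lanes the quasi-binomial value was 1 for both. In the same target, 174295219 had 27.5% and 22.9%. At *Commd1*/*Zrsr1*, 22974654 of chromosome 11 had 55.9% and 52.6%, and at *Mest*, 30735788 of chromosome 6 had 48.7% and 44.6%.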

How the data were processed

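Villi enterocytes of segment 7 were assayed by padlock bisulfite sequencing in 8 P60 and 6 P90 lac- samples. The authors trimmed reads with Trimmomatic 0.32, mapped them with Bismark to GRCm38 and deposited, for each cytosine and sample, the counts of modified and unmodified reads, without normalization. Whether copies of 1 molecule were collapsed is not given in the sources used here, so precision estimates from depth would cover counting error only. Of 47909 cytosines listed, 47772 had the same 3 bases in GRCm38 and 137 differed by masked bases alone.

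Percent modification was computed at cytosines with more than 30 reads. A CpG was tested when at least 3 samples of each group passed that minimum, with a quasi-binomial F test with 1 dispersion per CpG, taken from the scatter of the samples and not set below 1. Means over CpGs covered in all 14 samples were compared with two-sided exact permutation tests at a threshold of 0.05, after Benjamini-Hochberg correction within each family, and 95% intervals were found by inverting that test. Exon and intron borders were taken from the GRCm38 annotation. The CpGs named by rule are the 8 of the locus and the 5 of the other targets with the lowest p, and the one with the lowest p in the *Mcm6* exon 13-intron 13 cluster. The features named are those with the 3 largest rises and falls, those past correction, *Lct* exons 1, 9 and 12, *Lct* introns 2, 8 and 9, and *Mcm6* intron 1, and all clusters and targets with at least 3 CpGs were described. *Lct* intron 15, *Lct* exon 16, *Mcm6* exon 12 and the single cytosines of *Mcm6* exon 2 were added after their values were seen. The members and lists were chosen with earlier results of these data known. Printed sequences are those of the GRCm38 genome.

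Alternatives were coverage minimums of 10 and 100 reads, pooled reads, other corrections, limma on log2 odds (pseudocount 0.5), lane as a covariate, shared lanes, no merged file, a replicate block, no CpGs above 90%, and each sample left out. The tests were checked on counts simulated with the depth, mean level and dispersion of each CpG. In these the quasi-binomial F test called 4 of 50 CpGs changed by 5 points, 18 of 50 changed by 10 and 70 of 100 changed by 20. The changed CpGs were all of intermediate level and were only raised. Of 1299 unchanged CpGs it called 0, and 7.93% had an unadjusted p under 0.05. Python 3.11.15, NumPy 2.4.6, SciPy 1.17.1, pandas 2.3.3, Matplotlib 3.10.9, R 4.3.3 and limma 3.58.1 were used. Lanes and the merged mark were taken from the names of the deposited files. Pairs of samples within a group differed by more than the noise of counting reads (chi-square per CpG 2.65 to 31.1), and each was kept as a sample of its own. Separate libraries of 1 mouse could exceed that noise too, so this check cannot show that the samples came from separate mice.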

Additional observations from a re-analysis of the deposited data

Results flagged for a closer look

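Within each group the highest or lowest sample was compared with the rest by Dixon's criterion. Of 152 group values 15 were apart, 6 in P60 and 9 in P90, and chance gives about 1 in 20.

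P90 replicate 5, the merged library from lane 1, was apart in 5 of the 9. It read 84.5% in the *Lct* exon 12 cluster (others 86.6% to 87.8%), 84.9% in the *Lct* exon 1 cluster (88.7% to 90.8%), 83.5% in the whole of *Lct* exon 1 (87.8% to 89.0%), 13.7% in *Mcm6* intron 1 (8.40% to 9.87%) and 86.1% in the *Blcap* target (90.2% to 91.3%). Other P90 samples apart were replicate 6 in a cluster of the 3′ flank of *Lct* (89.5%, others 86.3% to 87.3%) and in the reference CpH mean (0.675%, others 0.471% to 0.546%), replicate 3 in the 3′ flank cluster nearest to *Lct* (82.9%, others 78.6% to 79.997%) and replicate 1 at the CpG 128278063 (97.1%, others 95.2% to 95.6%).

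Of the P60 samples, replicate 1 was apart at the *Mcm6* exon 16 cluster (83.6%, others 86.7% to 89.0%), in *Lct* exon 1 (85.8%, others 87.8% to 89.2%) and in the *Sgce*/*Peg10* target (55.8%, others 50.5% to 52.7%). Replicate 7 was apart in the *Mest* target (49.3%, others 46.5% to 46.9%) and at its CpG 30735788 (52.4%, others 46.96% to 49.4%), and replicate 8 in *Mcm6* intron 1 (11.4%, others 8.16% to 9.48%).

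Outside the comparisons, 26 CpHs on the plus strand of a stretch of *Mcm6* intron 2 (128354333 to 128354476) were read as almost wholly modified, with a lowest sample mean of 99.6% in P90 lac-, where locus CpHs averaged 0.463%. The stretch holds no CpG. The range was 99.6% to 99.8% in P90 lac-, 98.8% to 100% in P60, 99.7% to 99.8% in LAC+ and 99.8% to 100% in P6. The plus strand was read far less than the minus strand there, with medians per sample of 16 to 27 reads in P60, up to 311 (median 285.5) in P90 lac-, 168 to 801.5 in LAC+ and 4 to 31 in P6. The minus strand had 6507 to 14379 reads in P60 and 7871 to 27063 in P90 lac-, with 0.236% to 0.418% and 0.408% to 0.529% of them modified. The share of plus-strand reads was thus 0.174% to 0.388% of the minus-strand reads in P60 and 0.802% to 3.79% in P90 lac-. The origin of these reads was not tested.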

How the results depend on the processing

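The locus CpG mean, the locus CpH mean, the *Mcm6* exon 13-intron 13 cluster and the count of clusters past correction (0) kept their direction and their side of the threshold under every alternative run. Leaving out 1 sample at a time, the locus mean ran from -0.43 to -0.11 points, the CpH mean from 0.091 to 0.102, the exon 13-intron 13 cluster from -4.76 to -1.18 and the reference mean from -0.83 to -0.48. Calls of single CpGs in the locus ran from 0 to 1 and in the reference stayed at 0, calls of clusters stayed at 0, calls of features ran from 0 to 1 (*Lct* intron 4, without P90 replicate 6) and calls of targets from 0 to 6. The 6 were found without P90 replicate 3, 3 without P90 replicate 5 and 0 without P90 replicate 4 or 6. Benjamini-Hochberg correction called 3 CpGs of the locus. With a minimum of 100 reads the reference mean was -0.71 points (exact permutation p = 0.027) and 2 targets passed, *Herc3*/*Nap1l5* and *Peg3*/*Usp29*. At that minimum *Mcm6* exon 2 gave no value, since too few reads remained. With pooled reads the reference mean was -1.01 points (exact permutation p = 0.00266), 4 features passed (*Lct* introns 8 and 10, *Mcm6* exons 2 and 12) and 3 targets (*Trappc9*/*Peg13*, *Slc38a4*, *Mest*). Of the targets 0 passed on the shared lanes, with the ages permuted within lane or with the replicate block, and 3 without the merged file (*Kcnq1*/*Kcnq1ot1*, *Blcap*, *Herc3*/*Nap1l5*). The smallest p that 5 against 5 samples can give is 0.00794, within the shared lanes 0.0167 and with 6 pairs 0.0312. None of these could pass correction alone over 20 targets, 17 clusters or 58 features. A count of 0 in those settings therefore says little.

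Same-numbered samples of both ages did not deviate together (mean r 0.0785 over 6 pairs, from -0.0726 to 0.243, against -0.0115 for different numbers, over the CpGs covered in all samples), and 2 of 6 P90 samples correlated best with their own number. With the replicate block 0 CpGs were called in the locus and 0 in the reference, with 58 and 130 at an unadjusted p under 0.05, against 46 and 110 with lane as a covariate. The block's locus mean was -0.11 points, its CpH mean 0.098 and its exon 13-intron 13 cluster -1.78.

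Of 1690 alternatives for single regions, CpGs and segments, 1539 kept direction and side of the threshold, 43 fell below it, 44 rose past it and 64 changed sign. Of the 64, 1 was past the threshold in either setting, the *Herc3*/*Nap1l5* target at 0.12 with pooled reads. The cause of the other changes of sign was not tested. With a minimum of 10 reads they were near *Meg3* -0.18 and *Sgce*/*Peg10* 1.81, and with 100 reads *Snrpn* -0.15 and the reference at 50% to 90% -0.061. With pooled reads they were clusters at *Mcm6* exon 14 0.0301 and *Mcm6* exon 10 0.18, near *Meg3* -0.34, *Nespas*/*Gnas* 0.55, *Zdbf2* -0.16, *Grb10* -0.11, the reference at 50% to 90% -0.47 and *Lct* intron 2 0.47. On the shared lanes they were the locus at 10% to 50% -0.36, the reference under 10% -0.052 and above 90% 0.043, *Lct* exon 1 0.052, *Lct* exon 12 0.12 and *Mcm6* intron 1 -0.50. With ages permuted within lane they were the locus at 10% to 50% -0.74, the reference under 10% -0.22, *Lct* exon 1 0.28, *Lct* exon 12 0.24, *Lct* intron 8 -0.12 and *Mcm6* intron 1 -0.24. Without the merged file they were the *Mcm6* exon 14 cluster 0.089, *Nespas*/*Gnas* 0.12, the reference above 90% 0.018 and *Mcm6* intron 1 -0.16, and with the replicate block the *Mcm6* exon 14 cluster 0.024. The segment 7 difference minus that of another segment changed sign on the shared lanes for the locus mean (segment 1, 1.99, and segment 4, 0.93), the reference mean (segment 1, 0.53) and the exon 13-intron 13 cluster (segment 1, 2.97). Without merged files it did so for the locus mean (segment 1, 1.48, segment 3, 0.073, segment 4, 1.04, and segment 8, 0.0012) and the reference mean (segment 1, 0.50). With single samples left out, sign changes were found in clusters at *Mcm6* exon 16 (-0.50 to 0.46), *Mcm6* exon 14 (-0.21 to 0.089) and *Mcm6* intron 3 (-3.16 to 0.29), in targets near *Meg3* (-0.25 to 0.66), *Snrpn* (-0.53 to 0.76), *Nespas*/*Gnas* (-1.06 to 0.18) and *Plagl1* (-0.16 to 0.51), in the locus at 10% to 50% (-0.23 to 1.21), the reference at 50% to 90% (-0.18 to 0.51) and above 90% (-0.64 to 0.018), and in *Lct* intron 8 (-0.25 to 0.62) and *Mcm6* intron 1 (-0.16 to 0.91).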
